A study of Mus musculus with 6 samples.

Results

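Liver mRNA of 37 complement and clotting genes was compared between A/J mice and A/J-12SM mice, which carry chromosome 12 of the SM/J strain on the A/J background. The genes were taken from a list of named proteins, 17 of complement and 20 of clotting. The list was chosen with earlier results of these data known. Of the 37 genes, 34 had a probe set (the group of short probes that measures a transcript) annotated to that gene alone, out of 18193 such genes on the array. The brightest probe set over the 6 arrays stood for each gene. C3, the central complement protein, and Cpb2, the precursor of a carboxypeptidase that slows clot lysis, had no probe set named for them in the annotation used here, and that of C4b was shared with C4a, so these 3 genes were not analysed here. Both groups were male mice given a high-fat diet for 7 weeks, and each strain had 3 arrays. Liver RNA of 3 mice was pooled for each array, so the spread between arrays is that between pools and not between single mice. The age of the mice is not in the labels. No listed gene lies on chromosome 12, so both strains carry A/J alleles of them by the construction of A/J-12SM. The defining liver markers were bright on all 6 arrays, with 8 of 10 hepatocyte markers measured and none at 0. In bulk tissue, fewer cells of a type and less RNA per cell cannot be told apart.

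Complement is a cascade of plasma proteins that marks microbes and damaged cells. The classical and lectin pathways start it by recognition, the alternative pathway amplifies it, and the terminal proteins assemble into a pore in the target membrane. Clotting runs through a chain of proenzymes that ends in thrombin, which turns fibrinogen into fibrin, and plasmin later dissolves the clot. Hepatocytes make most of these plasma proteins, and many of them are also acute phase proteins, whose synthesis in the liver shifts during inflammation.

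The stretches before the annotated gene starts of C8b and C8a, of Fga and Fgb, and of Mbl1 and Mbl2 are shown because the partners of each pair were set against each other below. They are the C57BL/6J reference sequence from RefSeq (GRCm38.p6), not that of A/J, and each ends at the base before the annotated gene start. C8b is shown from chr4:104766067-104766316 on the plus strand and C8a from chr4:104876488-104876648 on the minus strand. Fga is shown from chr3:83025903-83026152 on the plus strand and Fgb from chr3:83049864-83050113 on the minus strand. Mbl1 is shown from chr14:41151206-41151455 and Mbl2 from chr19:30232678-30232905, both on the plus strand. In the C8 and fibrinogen sequences capitals mark matches to the motifs described below. In the Mbl sequences they mark the longest run of bases that both share, which is 13 bases long.
C8b: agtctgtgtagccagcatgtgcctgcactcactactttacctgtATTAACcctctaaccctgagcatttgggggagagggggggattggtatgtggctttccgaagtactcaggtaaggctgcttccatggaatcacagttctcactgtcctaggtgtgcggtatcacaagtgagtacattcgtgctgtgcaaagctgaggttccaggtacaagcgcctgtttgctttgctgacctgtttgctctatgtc
C8a: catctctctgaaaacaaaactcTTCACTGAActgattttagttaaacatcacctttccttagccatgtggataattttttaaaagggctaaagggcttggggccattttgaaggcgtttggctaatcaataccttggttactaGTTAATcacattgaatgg
Fga: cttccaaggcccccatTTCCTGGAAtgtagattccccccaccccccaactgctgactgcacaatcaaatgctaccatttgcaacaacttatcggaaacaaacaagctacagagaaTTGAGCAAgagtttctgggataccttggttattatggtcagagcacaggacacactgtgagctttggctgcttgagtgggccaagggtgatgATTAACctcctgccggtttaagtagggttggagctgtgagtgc
Fgb: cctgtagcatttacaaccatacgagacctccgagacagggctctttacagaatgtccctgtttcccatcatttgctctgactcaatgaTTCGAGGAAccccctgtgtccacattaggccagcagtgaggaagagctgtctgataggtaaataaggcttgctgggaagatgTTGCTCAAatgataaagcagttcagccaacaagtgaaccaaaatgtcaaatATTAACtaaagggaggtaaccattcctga
Mbl1: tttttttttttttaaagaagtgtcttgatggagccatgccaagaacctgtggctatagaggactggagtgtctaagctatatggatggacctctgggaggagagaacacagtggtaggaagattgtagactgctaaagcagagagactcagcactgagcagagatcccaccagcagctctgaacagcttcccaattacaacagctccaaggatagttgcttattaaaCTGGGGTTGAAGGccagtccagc
Mbl2: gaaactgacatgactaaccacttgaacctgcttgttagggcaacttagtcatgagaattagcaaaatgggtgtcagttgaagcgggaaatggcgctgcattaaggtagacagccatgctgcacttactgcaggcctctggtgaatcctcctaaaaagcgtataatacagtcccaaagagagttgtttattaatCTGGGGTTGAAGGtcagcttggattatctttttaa
Promoter windows of the 250 bases before a RefSeq start site were given for 28 of the 37 genes, 1 window a gene, and 5 motifs were searched in them on both strands. The window ended at the annotated gene start for 17 genes and reached past it into the gene for 8. Those of F7, Hc and Masp2 lay inside the annotated gene, so the matches counted for Hc and Masp2 are not before their gene starts. The core of the HNF1 site, GTTAAT, a site of a factor of liver gene transcription, was in 7 of the 28 windows (C4bp, C8a, C8b, F13b, Fga, Fgb and Hc), or 25%, against 6.52% of all 27025 promoters. The C/EBP site TTGCNNAA was in 7 of 28 (25%, against 9.55%) and the STAT site TTCNNNGAA in 6 of 28 (21.4%, against 7.18%). The HNF4 core CAAAGT was in 4 (14.3%, against 12.5%) and the TATA box TATAAA in 2 (7.14%, against 13%). A match describes these letters and is not evidence of a bound factor. Fga and Fgb both held HNF1, C/EBP and STAT matches, whereas C8b held an HNF1 match alone and C8a an HNF1 and a STAT match.

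None of the 34 measured genes differed between the strains past the test's threshold (limma, adjusted p from 0.678 to 0.999), where 25 of 45037 probe sets did, or 0.0555%, and 12 of the 18193 genes by their brightest probe set, or 0.066%. Values below are log2 signals after quantile normalization, and differences are A/J-12SM minus A/J. At an unadjusted p under 0.05 there were 2 genes, the terminal complement subunit C8b (higher) and the mannose-binding lectin Mbl1 (lower). That is 5.88% of 34, against 6.78% of all genes (3.39% in each direction) and 11% of the 4176 genes at least as bright as the dimmest of the 34. For 6 of the 34 genes (17.6%) every array of a strain lay on 1 side of the other strain, against 12.3% of all genes (5.97% higher and 6.34% lower in A/J-12SM) and 17.1% of the 4176 genes at least as bright as the dimmest of these. C8b and Klkb1 were higher in every A/J-12SM array and Mbl1, C4bp, Serping1 and Fga were lower in every A/J-12SM array. With 3 arrays against 3, an exact permutation test gives these 6 genes p = 0.1, the smallest it allows.

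After quantile normalization the differences were small and went both ways, with 15 higher and 19 lower values and a median of -0.0042 beside -0.0055 over all genes. The median size of the difference was 0.1328 over the 15 complement genes and 0.0286 over the 19 clotting genes. Among genes at least as bright as the dimmest of the 34 it was 0.0995. Hepatocyte markers (0.0321) and apolipoproteins (0.043), also bright, had sizes near that of the clotting genes, so the small size is not particular to clotting. Of the clotting genes, 16 of 19 differed by less than 0.1 on the log2 scale, and of the complement genes 6 of 15. This contrast in size held only with some scalings. On the deposited values the median sizes were 0.1602 (complement) and 0.0879 (clotting), with a trimmed mean 0.1176 and 0.1206, and after centring each array on its median 0.1063 and 0.1513, where 6 of 15 and 6 of 19 genes were under 0.1. After quantile normalization the 95% intervals of 32 of the 34 genes lay within 0.5 either way (1.41-fold), including all 19 clotting genes. The exceptions were C6 and C8b. Among genes at least as bright, 81.1% had such an interval.

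The direction of most of these small differences depends on how the arrays are scaled. On the deposited values the median of all genes lay 0.22 lower in A/J-12SM, and 31 of the 34 genes had lower values there. After centring each array on its median, 27 of the 34 had higher values. The direction was the same under all 4 scalings for 10 genes, namely Hc, C8b and Klkb1 (higher) and Mbl1, Masp2, C6, C4bp, Serping1, F7 and Pros1 (lower). Of the 6 genes without overlap, Mbl1, C4bp and Serping1 had none on the deposited values either, and C8b and Fga had none after median centring, where Fga was higher (0.19). With a trimmed mean C8b, Klkb1 and Fga had none, and Fga was again higher (0.16). Read against the median of all genes on the same scale, 26 of the 34 genes lay above it on the deposited values and 17 of 34 after quantile normalization.

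**Figure D1:**
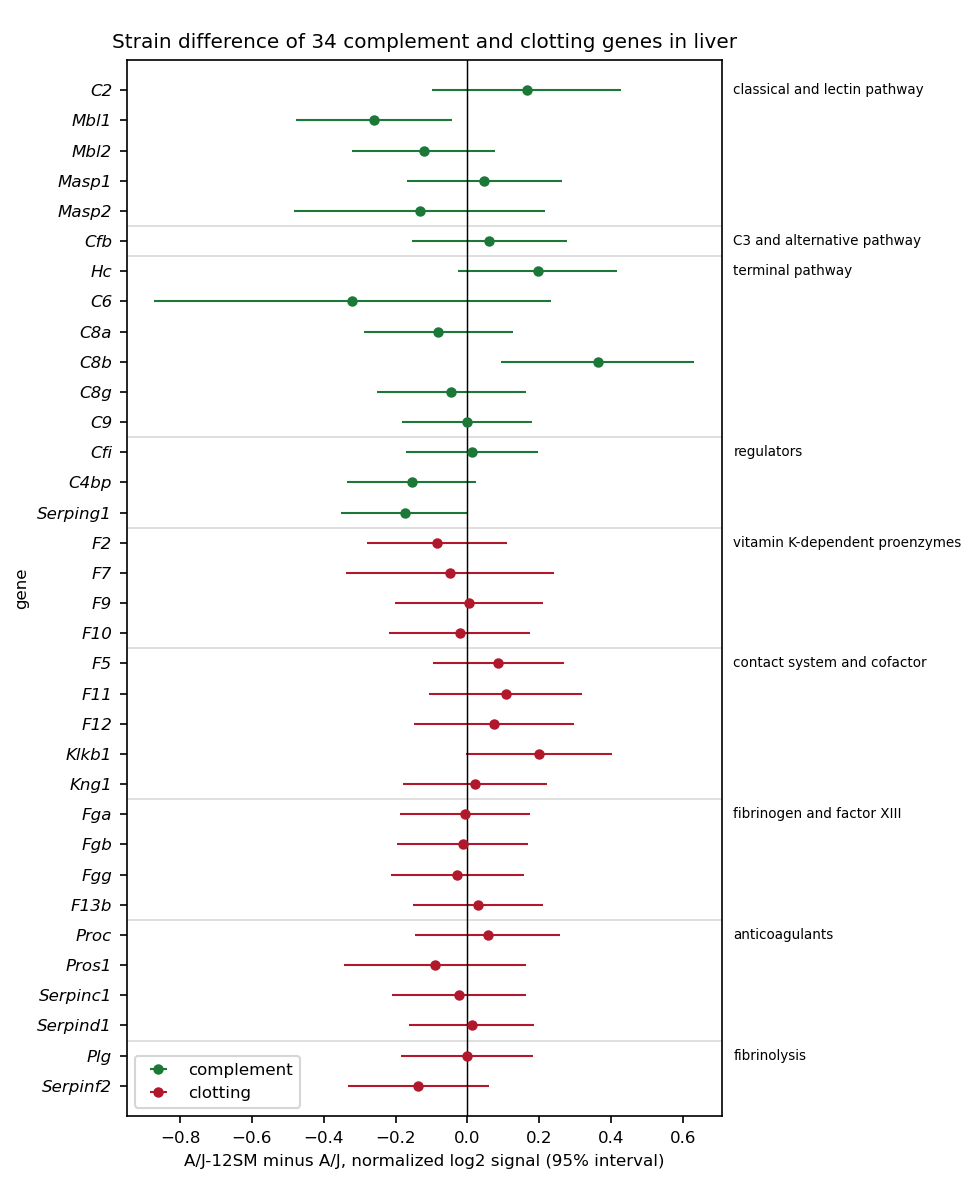
Difference in log2 signal (A/J-12SM minus A/J, horizontal axis) of each of the 34 genes, grouped by role, with bars for the 95% interval from limma. With this normalization (quantile) the clotting genes lie between -0.14 and 0.20, while the complement genes spread from -0.32 for C6 to 0.36 for C8b.

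The classical and lectin genes had a median difference of -0.12 over the 5 measured (after median centring 0.03). Mbl1, a collectin that binds mannose on microbes, gave 11.93, 12.06 and 11.92 in the A/J arrays and 11.62, 11.88 and 11.62 in the A/J-12SM arrays. All 3 A/J-12SM values were below the lowest A/J value. The means were 11.97 ± 0.08 and 11.71 ± 0.15 (SD, n = 3 arrays each), a difference of -0.26 with an SE of 0.10 (limma, unadjusted p = 0.0241, adjusted p = 0.751). The interval ran from -0.48 to -0.04, and the unadjusted p exceeded 0.05 without A/J replicate 2 or A/J-12SM replicate 1. Its relative Mbl2, on another chromosome, differed by -0.12, with overlapping arrays. C2, a serine protease of the convertase that the classical and lectin pathways form, gave 10.10, 10.14 and 10.04 on A/J arrays and 10.01, 10.29 and 10.48 on A/J-12SM arrays. The lowest A/J-12SM array lay below all A/J arrays and the other two above them, and the difference was 0.17 (limma, SE 0.12, adjusted p = 0.864), which was -0.04 on the deposited values. It was 0.29 without A/J-12SM replicate 1 (limma, unadjusted p = 0.0204) and 0.05 without A/J-12SM replicate 3. The lectin pathway proteases Masp1 and Masp2 differed by 0.05 and -0.13.

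Cfb, factor B, supplies the protease of the alternative pathway. Its values were 12.28, 12.38 and 12.29 on A/J arrays and 12.53, 12.39 and 12.22 on A/J-12SM arrays. The A/J-12SM arrays spanned the whole range of the A/J arrays, and the difference was 0.06, or -0.08 on the deposited values.

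Among the 6 terminal genes C8b had the highest difference and C6 the lowest of all 34 genes. C8b, which encodes the beta chain of the pore protein C8, gave 10.50, 10.77 and 10.69 on A/J arrays and 11.03, 11.22 and 10.80 on A/J-12SM arrays. The groups did not overlap, although A/J-12SM replicate 3 (10.80) lay close to the highest A/J array (10.77). The means were 10.65 ± 0.14 and 11.02 ± 0.21 (SD, n = 3 arrays each), a difference of 0.36 or 1.29-fold (limma, SE 0.12, unadjusted p = 0.0132, adjusted p = 0.678). The unadjusted p exceeded 0.05 without A/J replicate 1 or A/J-12SM replicate 2. The deposited C8b signals, 1599, 1808 and 1781 on A/J arrays and 1891, 2298 and 1669 on A/J-12SM arrays, overlapped, with a difference of 0.165 (limma, unadjusted p = 0.215). Hc encodes complement C5, from which the membrane attack starts, and lies at chr2:34983329-35068506. A/J mice are known to lack the protein. The Hc probe set gave 10.88, 10.98 and 11.19 on A/J arrays and 11.21, 11.13 and 11.30 on A/J-12SM arrays. A/J replicate 3 lay within the A/J-12SM values, and the difference was 0.20 (limma, SE 0.10, adjusted p = 0.824, interval -0.03 to 0.42). The deposited Hc signals were 2078, 2073 and 2501 on A/J arrays and 2125, 2169 and 2452 on A/J-12SM arrays, and its mean log2 signal of 11.02 in A/J lay above the median of 5.33 over all probe sets. These arrays measure mRNA and not the protein.

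C6, the next protein of the pore, varied more between arrays of a strain than between the strain means. It gave 9.38, 10.29 and 9.50 on A/J arrays and 9.13, 9.85 and 9.24 on A/J-12SM arrays. Replicate 2 was the highest in each strain, and the groups overlapped. The difference was -0.32 (limma, SE 0.25, adjusted p = 0.874) and ranged from -0.54 to -0.04 when single arrays were left out. C8a, C8g and C9, which complete the pore, differed by -0.08, -0.04 and -0.00.

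The 3 measured regulators had a median difference of -0.15, of the same sign under all 4 scalings. C4bp, which binds C4b and helps to inactivate it, gave 13.20, 13.31 and 13.24 on A/J arrays and 13.06, 13.14 and 13.08 on A/J-12SM arrays. Serping1, the inhibitor of the first complement protease and of plasma kallikrein, gave 13.30, 13.39 and 13.39 on A/J arrays and 13.19, 13.19 and 13.18 on A/J-12SM arrays. Neither gene overlapped between strains, and both were lower in all A/J-12SM arrays. C4bp differed by -0.15 (limma, SE 0.08, adjusted p = 0.826) and Serping1 by -0.17 (limma, SE 0.08, adjusted p = 0.802). After median centring these were -0.01 and -0.04. Cfi, factor I, the protease that cuts C4b and C3b, gave 13.32, 13.44 and 13.41 on A/J arrays and 13.45, 13.38 and 13.37 on A/J-12SM arrays. The arrays overlapped, and the difference was 0.01, or -0.07 on the deposited values.

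**Figure D2:**
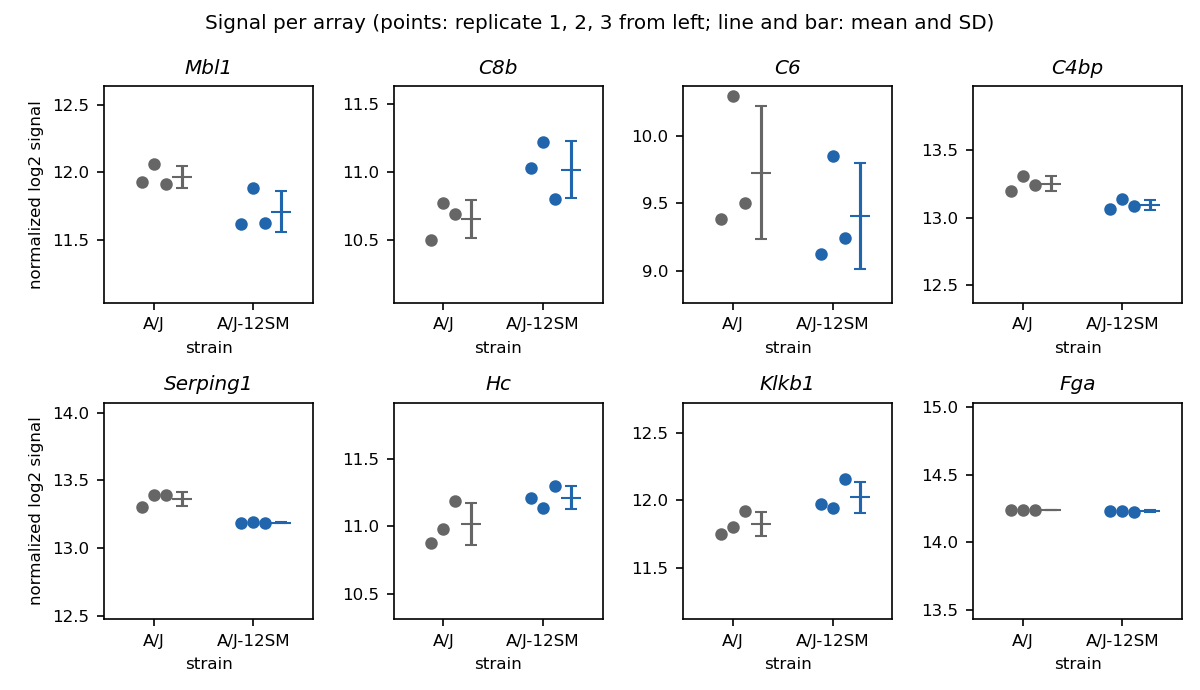
Quantile-normalized log2 signal (vertical axis, of the same span but a different range in each panel) of 8 genes in the 3 A/J and 3 A/J-12SM arrays, as points, with the strain mean and SD beside them. C8b and Klkb1 lie higher and Mbl1, C4bp, Serping1 and, by at most 0.01, Fga lower in every A/J-12SM array, while C6 and Hc overlap.

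The subunits and neighbours of 9 gene pairs were set against each other within each array, pairs that were chosen after their values were seen. C8b and C8a lie next to each other on chromosome 4 (chr4:104766317-104804548 and chr4:104815679-104876487), and their proteins join in C8. C8b minus C8a was -2.53, -2.40 and -2.45 on A/J arrays and -2.02, -1.92 and -2.10 on A/J-12SM arrays. The strains differed in this by 0.44 without overlap (exact two-sided permutation p = 0.1, the smallest possible, and 0.45 after adjustment over 9 pairs). C8b minus C8g differed by 0.41, also without overlap (exact permutation p = 0.1, adjusted 0.45). Both pairs hold the same C8b values, so the second is not separate support. As the pairs were chosen on their values, the adjustment does not cover that choice. On the deposited values these were 0.33 and 0.30. The other 7 pairs overlapped, with exact permutation p from 0.4 to 1, and included Mbl2 minus Mbl1 (0.14), Klkb1 minus F11 (0.09), C2 minus Cfb (0.10) and Fga minus Fgb (0.01). A probe set's level is not comparable with that of another, so only the differences between strains are of use here.

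**Figure D3:**
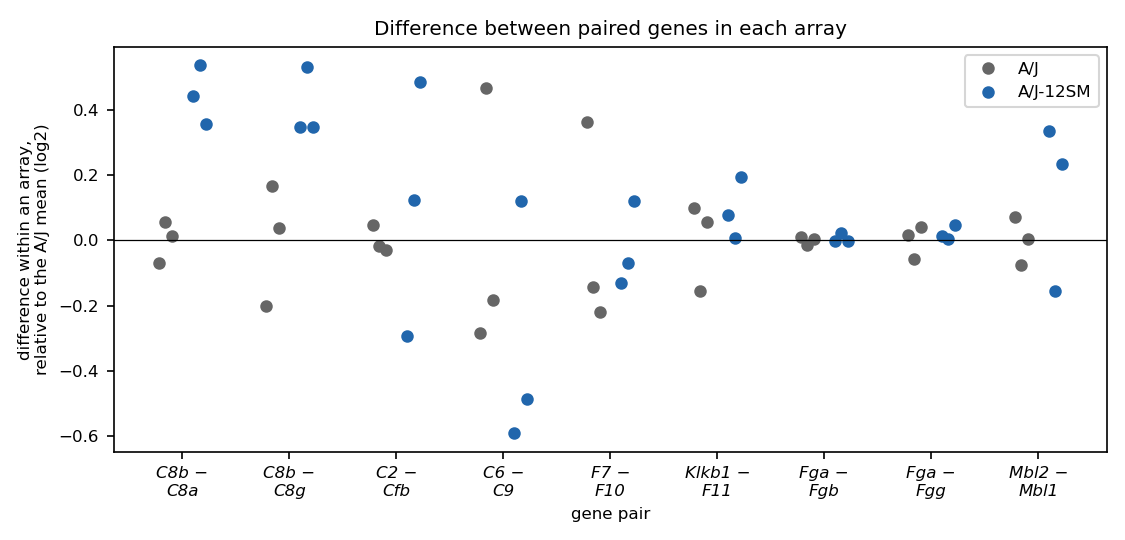
Difference in log2 signal between the genes of each pair (horizontal axis) in each array, less the mean of the A/J arrays (vertical axis), with A/J and A/J-12SM arrays as points. C8b minus C8a and C8b minus C8g are higher in all 3 A/J-12SM arrays, and the other 7 pairs overlap.

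The vitamin K-dependent proenzymes F2, F7, F9 and F10, which are activated in sequence to thrombin, differed by -0.08 to 0.01. F2, prothrombin, gave 13.64, 13.61 and 13.58 on A/J arrays and 13.60, 13.56 and 13.41 on A/J-12SM arrays, the last being the lowest of the 6. The arrays overlapped, with a difference of -0.08 that was 0.07 after median centring. F9, factor IX, the protein missing in haemophilia B, gave 12.01, 12.02 and 11.94 on A/J arrays and 11.90, 11.91 and 12.16 on A/J-12SM arrays. A/J-12SM replicate 3 was above and the other A/J-12SM arrays below all A/J arrays. The difference was 0.01, or -0.16 on the deposited values.

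The contact system and the cofactor F5 had a median of 0.09 over 5 genes, all with higher values in A/J-12SM after quantile normalization but only 1 of 5 on the deposited values. All 5 lay above the median of all genes both on the deposited values and after quantile normalization. Median centring and the trimmed mean shift all genes of an array alike, so they add no further check of this. On the deposited values all 4 fibrinogen and factor XIII genes and all 8 hepatocyte markers also lay above it (1 and 4 after quantile normalization). Klkb1, plasma prekallikrein, which activates factor XII and frees bradykinin, gave 11.75, 11.80 and 11.92 on A/J arrays and 11.97, 11.94 and 12.15 on A/J-12SM arrays. The groups did not overlap, and the difference was 0.20 (limma, SE 0.09, unadjusted p = 0.054, adjusted p = 0.804). The deposited Klkb1 signals, 3727, 3629 and 4151 on A/J arrays and 3651, 3870 and 4331 on A/J-12SM arrays, overlapped, with a difference of 0.04 (limma, unadjusted p = 0.704), and the arrays also overlapped after median centring. With a trimmed mean they did not overlap, and the difference was 0.25 (limma, unadjusted p = 0.0292, adjusted p = 0.772). F11, its neighbour on chromosome 8, which activates factor IX, differed by 0.11 with overlapping arrays. F5, the cofactor that speeds thrombin formation, F12, which starts the contact pathway, and Kng1, the kininogen, differed by 0.09, 0.07 and 0.02.

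The fibrinogen genes lie together on chromosome 3 and make the protein of the clot. Fga, the alpha chain, gave 14.24 in each A/J array and 14.23, 14.23 and 14.22 in the A/J-12SM arrays. The groups did not overlap, but quantile normalization sets a value from its rank, and Fga ranked 14 of 45037 in each A/J array and 15, 15 and 16 in the A/J-12SM arrays. The deposited Fga signals were 20290, 19334 and 19063 on A/J arrays and 18879, 20195 and 17782 on A/J-12SM arrays, which overlap. The difference was -0.01, and -0.05 on the log2 deposited values. Fgg, the gamma chain, gave 13.99, 14.06 and 13.97 on A/J arrays and 13.99, 14.00 and 13.95 on A/J-12SM arrays, a difference of -0.03 with overlapping arrays. Fgb, the beta chain, differed by -0.01. F13b, the carrier subunit of the factor that cross-links fibrin, gave 12.74, 12.64 and 12.67 on A/J arrays and 12.67, 12.67 and 12.79 on A/J-12SM arrays. It differed by 0.03, and by -0.09 on the deposited values.

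The anticoagulants differed by -0.09 to 0.06. Proc, protein C, which inactivates the cofactors of clotting, gave 12.38, 12.37 and 12.50 on A/J arrays and 12.58, 12.50 and 12.35 on A/J-12SM arrays, with overlap and a difference of 0.06. Its cofactor Pros1, protein S, gave 8.40, 8.58 and 8.53 on A/J arrays and 8.53, 8.27 and 8.45 on A/J-12SM arrays. These overlapped too, and the difference was -0.09. Serpinc1, antithrombin, and Serpind1, heparin cofactor II, differed by -0.02 and 0.01. In fibrinolysis, Plg, the plasmin precursor, differed by -0.0008. Serpinf2, the inhibitor of plasmin, gave 12.96, 12.92 and 12.87 on A/J arrays and 12.82, 12.87 and 12.65 on A/J-12SM arrays. The highest A/J-12SM array lay just above the lowest A/J array, and the difference was -0.14 (limma, SE 0.09, adjusted p = 0.848).

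**Figure D4:**
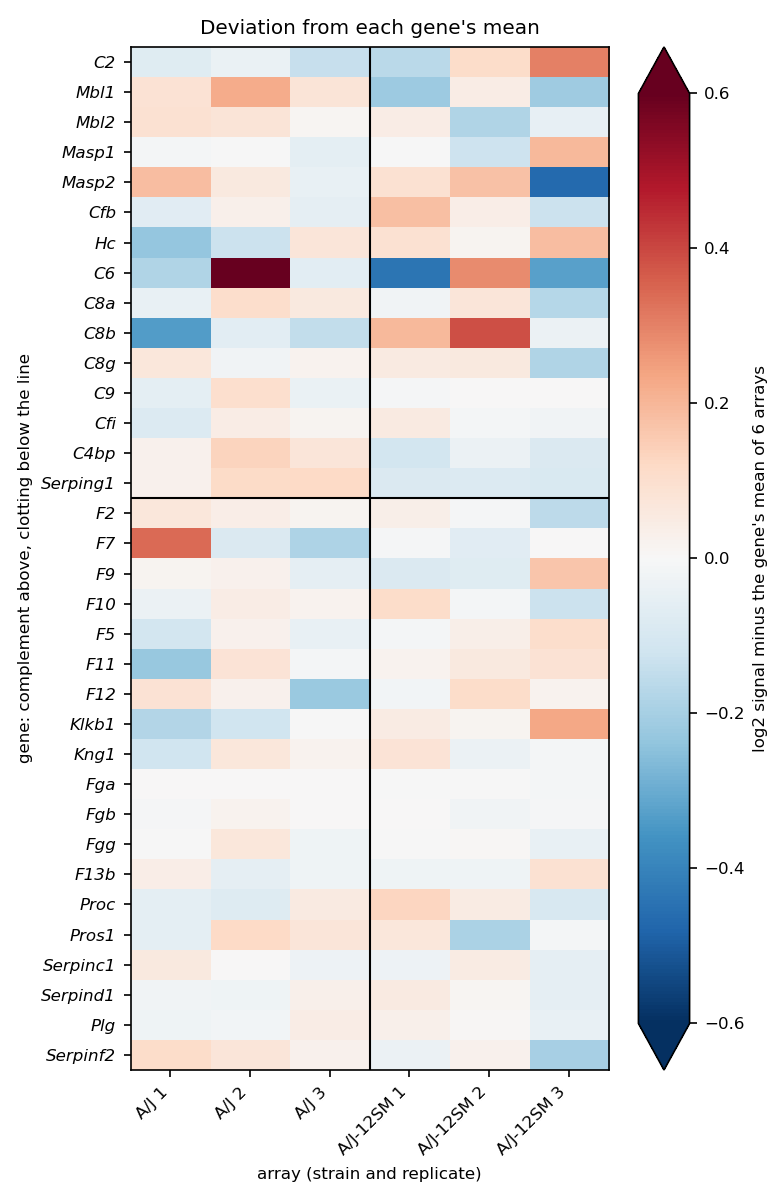
Deviation of each gene from its mean over the 6 arrays (log2, colour), with genes in rows by role and arrays in columns by strain. A/J-12SM replicate 3 has the lowest value for 14 of the 34 genes and the highest for 8, and C6 is high in replicate 2 of both strains.

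Further probe sets of these genes did not always move together. The second probe set of F5 gave 11.56, 11.70 and 11.74 on A/J arrays and 11.83, 11.87 and 12.10 on A/J-12SM arrays, without overlap, where the brightest overlapped. Its difference was 0.27 (limma, unadjusted p = 0.0219, adjusted p = 0.739). A further probe set of F10 and one of Masp1 were also higher in all A/J-12SM arrays (limma, adjusted p = 0.824 and 0.83). Of all genes by their brightest probe set, 5.97% were higher without overlap. Values of the further probe sets are given after quantile normalization alone. The remaining probe sets of Masp1 differed by -0.17, 0.01 and -0.22 and that of F10 by 0.16, all with overlap. The other C2 probe sets differed by -0.01 and 0.16, that of Kng1 by 0.08, and that of Masp2 by 0.10 where the brightest differed by -0.13, all with overlap.

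A/J-12SM replicate 3 was the lowest array for 14 of the 34 genes (41.2%), against 31.3% of genes at least as bright. It was also the highest array for 8 of the 34, as A/J replicates 1 and 2 each were. The signal at the 5′ end of the actin control relative to its 3′ end was 0.423 there and 0.553 to 0.59 on the other 5 arrays. The same ratio of the Gapdh control did not stand out, at 1.53 there and 1.45 to 1.55 on the other 5 arrays. The part of RNA quality in the low and high values of that array was not tested. Array trimmed means were 200.5 to 213.2 on A/J arrays and 170.5 to 185.8 on A/J-12SM arrays.

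Of the other complement genes, 23 of 28 were measured and none was called. The lectin Colec11 passed the unadjusted level with a higher value (0.41, limma SE 0.08, adjusted p = 0.265). C1qa and C1s1, of the first complement complex, passed it with lower values (-0.35 and -0.18). Colec11 lies on chromosome 12, where SM/J bases under the probes can change the signal, which was not tested. Of 21 other clotting genes measured of 24, none was called, and the inhibitor Tfpi2 and the thrombin receptor F2r were lower at an unadjusted p under 0.05 (-0.23 and -0.28). Of 6 genes of the vitamin K cycle and of clotting factor secretion, Nqo1 alone passed that level (-0.68). Among 13 transcription factors and IL-6 signalling genes, Foxa2 and Il6ra did, each with a higher value (0.39).

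A list of acute phase proteins had a median of -0.28 over 19 genes after quantile normalization, with 17 of 19 lower values (12 of 19 after median centring). With quantile normalization 8 of the 19 were lower at an unadjusted p under 0.05 (limma), or 42.1% against 3.39% of all genes. Saa1, Saa2, Orm2 and Lcn2 differed by -1.21, -1.27, -1.48 and -1.43 (limma, adjusted p from 0.385 to 0.633). A/J replicate 2 was the highest array for each of these, and the A/J arrays spread widely (SD 0.60, 0.85, 0.78 and 1.10). Lcn2 overlapped between strains, with 6.92 in A/J replicate 1 and 6.96 in A/J-12SM replicate 2. The lowest adjusted p of the list was that of Serpina3n (-0.415, limma, adjusted p = 0.317). Serpina3n lies on chromosome 12, where SM/J bases under the probes can change the signal, which was not tested. The fibrinogen genes, also acute phase proteins, differed by -0.03 to -0.01. The 10 Kupffer cell and macrophage markers all had lower values in A/J-12SM, with a median of -0.27, and their summed signals were 6306 to 7906 on A/J arrays and 5640 to 6737 on A/J-12SM arrays. C1qa, named above, is a gene that macrophages make. Summed hepatocyte markers were 111995 to 114472 on A/J arrays and 115480 to 119310 on A/J-12SM arrays, without overlap. The median difference of these 8 markers was 0.0007, with 4 higher and 4 lower values (2 and 6 on the deposited values), and Cps1 (0.28) alone was at an unadjusted p under 0.05. Markers of endothelial and stellate cells had medians of 0.01 and 0.03, and those of bile duct, platelets and red blood cells -0.52, -0.22 and -0.44, with no marker at 0. Summed endothelial markers were also higher without overlap (5067 to 5125 on A/J arrays, 5411 to 5707 on A/J-12SM arrays). Sums of platelet (368 to 379 and 297 to 356) and red blood cell markers (1460 to 1771 and 1008 to 1308) were lower without overlap. Those of Kupffer cells, stellate cells and bile duct overlapped. The apolipoproteins, further plasma proteins of the hepatocyte, had a median of 0.01 over 13 genes, of which Apoa4 was called (-0.96). At an unadjusted p under 0.05 were also Apom (0.55) and Apoc2 (-0.34), the macrophage markers Cd5l (-0.43) and Aif1 (-0.59), Fcgr2b of endothelial cells (0.37), Reln and Lum of stellate cells (0.46 and 0.64), Krt7 of the bile duct (-2.22) and Alas2 of red blood cells (-0.44). Krt7 was dim, with a mean log2 signal of 2.62 beside a median of 5.33 over all probe sets. Its arrays overlapped between strains, and its interval ran from -4.23 to -0.22. The bile duct markers had mean log2 signals of 2.62 to 5.75. The part of cell make-up in the differences of the 34 genes was not tested.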

How the data were processed

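The authors deposited one-colour Affymetrix intensity values, 1 per probe set and array, which the submitters' processing notes credit to MAS5. How MAS5 scaled the arrays is not given in the sources used here. All 6 arrays were used, grouped by the strain in the labels. As array levels differed between strains, log2 values were quantile normalized, which assumes that most genes do not differ. Of 45037 probe sets, with 64 controls left out, 34945 had 1 gene in the platform annotation, and 34741 of these matched GRCm38.p6. Strains were compared with limma 3.58.1 in R 4.3.3 (eBayes with a trend, two-sided, Benjamini-Hochberg over all probe sets, called at an adjusted p under 0.05), a procedure tested on simulated data. Single values were also compared by exact permutation. Precision is limited by 3 arrays per strain.

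The members, gene lists, motifs and tests were chosen with earlier results of these data known. All 37 members are named. Array values are given for members with an unadjusted p under 0.05 or without overlap, for the largest difference above and below 0 in each role group, and for Hc. Genes of other lists are named where called or at an unadjusted p under 0.05. Acute phase genes at that level are given by a count, 4 examples and the gene with the lowest adjusted p. The marker list values are sums of normalized signals on a linear scale. Alternatives were the deposited values, median centring, a trimmed mean, an offset, a filter on dim probe sets, 1 prior variance, Student's t, the mean over probe sets, the replicate number as a block, and leaving out each array. Figures were drawn with matplotlib 3.10.9.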

Additional observations from a re-analysis of the deposited data

How the results depend on the processing

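No member was called under any of the alternatives run. Of 180 values of the 18 members given by array, under the settings that can move a difference (scaling, offset and leaving out an array), 160 kept their direction and 20 reversed, none of them past the threshold. The others change only the p, apart from C2 under the mean over probe sets (0.11). On the deposited values 47 probe sets were called, and 5923 of 45037 had an unadjusted p under 0.05. At that level were 5 members (Mbl1, C6, C4bp, Serping1 and Pros1, all lower). On these values 11 members did not overlap, a count without a share of all genes beside it. The medians were -0.15 (complement) and -0.088 (clotting). C2 (-0.036), Cfb (-0.078), Cfi (-0.0745), F9 (-0.16), F13b (-0.0879) and Proc (-0.0846) reversed there. Centring on the median gave 1 member at that unadjusted level (C8b), beside 2280 probe sets. The medians were 0.0874 and 0.15, and F2 (0.072), Fga (0.19), Fgg (0.17) and Serpinf2 (0.0037) reversed. Scaling to a trimmed mean gave 2 members at that level (C8b and Klkb1, both higher), beside 2816 probe sets. The medians were 0.057 and 0.12, and F2 (0.041), Fga (0.16) and Fgg (0.13) reversed. The filter on dim probe sets and the mean over probe sets each gave 5 members at that level. With the filter 1918 of the probe sets kept were at that level. With 1 prior variance there were 0 members and 1 probe set called, and Student's t called 1 probe set and put C4bp and Serping1 at that level.

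Leaving out an array left 6 to 23 probe sets called (for A/J, 14 without replicate 1, 6 without the second and 11 without the third, and for A/J-12SM, 16 without replicate 1 and 14 without the second), 1 to 3 members at an unadjusted p under 0.05, and 8 to 10 without overlap, a count that fewer arrays raise by construction. In these runs 2099 to 3145 of 45037 probe sets had an unadjusted p under 0.05. Mbl1 was the 1 member at that level without A/J replicate 1, and C8b the 1 without A/J replicate 2. Without A/J-12SM replicate 1 Mbl1 lost that level, and without A/J-12SM replicate 2 C8b did. The medians ran from -0.08 to -0.003 for complement and from -0.0153 to 0.0018 for clotting. Cfb (-0.0142 to 0.14), Cfi (-0.024 to 0.0389), F13b (-0.0114 to 0.0559), F9 (-0.0763 to 0.0488) and Fgg (-0.0449 to 0.001) reversed within these. The cause of these moves was not tested, and a p that misses the threshold with 3 arrays per strain does not show that levels were equal.

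The replicate numbers did not pair the arrays (correlations of deviations -0.06, 0.09 and 0.16). Fitted with that number as a block, 28 probe sets were called, and 3058 of 45037 had an unadjusted p under 0.05. At that level were 4 members (Mbl1, C6, C8b and Klkb1).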
